A study of Mus musculus with 6 samples.

Results

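The probe sets described here belong to the matrix metalloproteinases (Mmp), their tissue inhibitors (Timp) and the membrane inhibitor Reck, and to the related ADAM and ADAMTS proteases. They were chosen by gene symbol alone, as every probe set of both chips annotated to a single gene whose symbol begins with Mmp, Timp, Adam or Adamts and a number, plus Reck. This gave 117 of 45265 probe sets, for 66 of 18193 genes measured: 18 Mmp, 4 Timp, Reck, 28 Adam and 15 Adamts genes. The Adam genes were split by textbook knowledge into 12 somatic-type and 16 testis-type genes, the latter known mainly from testis or epididymis.

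The RNA was from myospheres, the floating clusters formed in culture by hind-leg muscle cells. The cells were sorted by FACS for the Sca1 antigen, and the donor mice were male and of the Balb/c strain. The age of the mice and the number pooled are not given in the sources used here. The cells grew for 4 days in neural stem cell medium (neurocult) with bf6f, LIF, B27 and EGF, as the labels spell them, and RNA was taken at passage 1 from 2000000 cells. All arrays share these conditions and there is no other treatment, genotype or cell type. There were 3 replicates, each hybridised to the chips MOE430A and MOE430B. The labels do not say that the replicates came from separate cultures, so the spread between arrays may be technical, and p-values measure that spread only.

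Matrix metalloproteinases are zinc-dependent endopeptidases, secreted or held at the membrane as inactive precursors, that cut collagens, gelatin, proteoglycans and other matrix proteins. ADAM proteases are membrane proteins that release the outer parts of growth factors, cytokine receptors and adhesion molecules, while the related ADAMTS proteases are secreted and cut proteoglycans and procollagens. TIMPs bind the active sites of Mmps and of some ADAM and ADAMTS proteases. In muscle, connective tissue cells and infiltrating leukocytes are known sources of these enzymes, and matrix turnover accompanies repair.

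A gene was counted as above background when at least 1 of its probe sets exceeded a limit on all 3 arrays of its chip. The limit was the 95th percentile of probe sets for genes of unrelated tissues, such as odorant receptors. For replicates 1, 2 and 3 it was 819, 784 and 821 signal units on MOE430A, whereas on MOE430B it was 3266, 2940.4 and 2560.1. On all 3 arrays it was passed by 2.63% of the reference sets of MOE430A and by 4.65% of those of MOE430B. The limit was set from these same sets, so both shares are low by construction and do not measure a rate of false calls. The chips are scaled separately, so a signal is read only against its own chip's limit, given as a fold of the limit (the geometric mean over 3 arrays). Values are MAS5 signals for replicates 1, 2 and 3 in that order, and come from MOE430A where no chip is named. Signals of different probe sets are not comparable with each other. The distance from the limit was tested on the log2 scale with limma (two-sided, the limit taken as known, Benjamini-Hochberg adjustment over all probe sets of the chip). Probe sets for Gapdh at the 3' end read 13.8 times those at the 5' end on MOE430A, and 15.4 times on MOE430B. A probe set far from the 3' end may thus read low, and a gene counted as not above background may still be expressed. The part of this in the calls was not tested.

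Of the 66 genes, 25 were above the limit, or 37.9%, beside 36.1% of all genes measured. The share over the whole group is thus near the background. On MOE430A alone 22 of 55 were above it, beside 42.7% of the genes on that chip. Mmp genes were above it for 8 of 18, Timp genes for 3 of 4, Reck for its only probe set, somatic-type Adam genes for 6 of 12, Adamts genes for 6 of 15 and testis-type Adam genes for 1 of 16. With the 99th percentile as limit 20 genes stayed above it, beside 27% of all genes, without Adam33, Adamts7, Mmp10, Mmp19 and Timp3. Without the sets of shared sequence (names ending in _a_at, _s_at or _x_at), which may match more than 1 transcript, Adam15 and Adam33 were lost. Genes with more probe sets have more chances to pass. Of members with 1 probe set 9 of 36 were above (25%), beside 22.1% of all such genes. With 2 probe sets it was 9 of 17 (52.9%) beside 42.3%, and with 3 or more 7 of 13 (53.8%) beside 59.1%. The testis-type group holds mostly genes with a single probe set, whereas 10 of 12 somatic-type Adam genes have more than 1.

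**Figure D1:**
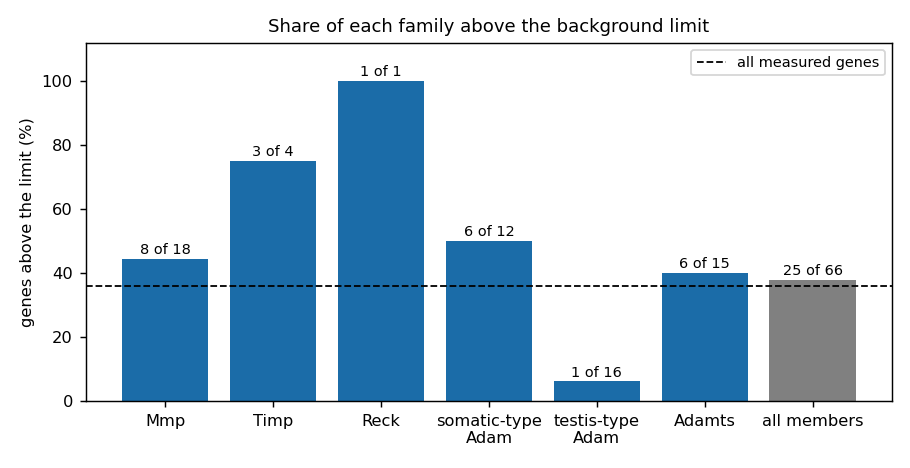
Percentage of genes above the background limit in each family (bars, with the counts printed over them), and the percentage over all measured genes (dashed line, 36.1%). Timp and Reck hold 4 genes and 1 gene; the testis-type Adam genes lie lowest, at 1 of 16.

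Of the MOE430A probe sets of these families, 29 of 84 were above on all 3 arrays, beside 35.6% of all single-gene probe sets of that chip. On MOE430B 5 of 33 were, beside 13.5%. In the limma test 29 member probe sets on MOE430A were higher than the limit and 41 lower, where 32.6% and 47.8% of all probe sets of the chip were called in these directions. On MOE430B 4 were higher and 23 lower, beside 8.51% and 73.6%. The median log2 ratio to the limit on MOE430A was 0.23 for the 25 Mmp probe sets, 0.13 for 9 Adamts, -0.13 for 13 Timp, -0.95 for 22 somatic-type Adam and -1.75 for 14 testis-type Adam probe sets, and over all single-gene probe sets it was -0.51. The Timp median thus lay above that of all single-gene probe sets, and the somatic-type Adam median under it. Both families hold genes with several probe sets of which only some were above the limit, as described further on. Other somatic-type Adam genes had no set above it. The part of either in these medians was not tested.

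Among the inhibitors, Timp1, Timp2, Timp3 and Reck were above the limit and Timp4 was not. Timp1, a secreted inhibitor of most soluble Mmps, read 59418, 70057 and 64611 by its only probe set. All 3 arrays lay far above the limit, at 79.9 times it (log2 ratio 6.32 ± 0.16 (SE), limma adjusted p = 5.38e-08). Timp2 inhibits Mmps and also, bound to Mmp14, holds the precursor of Mmp2 at the cell surface for activation. It was read by 6 probe sets, of which 3 were above the limit. An _s_at set, which may match more than 1 transcript, read 32611, 33188 and 29728, or 39.4 times the limit. Another gave 22228, 28314 and 20351 and the next 13691, 11258 and 13286, at 29 and 15.7 times the limit. The remaining 3 read 939, 758 and 642, then 1885, 274 and 786, and last 51.3, 33 and 31.4. The first and the next of these exceeded the limit in replicate 1 alone, and the next differed by 6.88 times between its highest and lowest array.

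Timp3, which binds to the matrix and also inhibits Adam17 and aggrecanases, was above the limit by 1 of 4 probe sets, at 1143, 1397 and 1041, or 1.47 times the limit (limma adjusted p = 0.0109). This is a small margin, which did not pass limma without replicate 2 (adjusted p = 0.0702), and the lowest array was replicate 3, at 1.27 times its limit. The other Timp3 sets read 659 ± 49.6, 511 ± 53.2 and 67.9 ± 22.6 (SD, n = 3), under the limit on every array. Timp4, known from heart, gave 425, 342 and 233 by its first probe set and 611, 104 and 641 by its other. Neither exceeded the limit on any array. Reck, a membrane-anchored protein that restrains several Mmps, read 1433, 1507 and 1444, or 1.81 times the limit (limma adjusted p = 4.52e-04). Its arrays lay close together, the highest at 1.05 times the lowest.

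Among the Mmps, both gelatinases were above the limit. Mmp2, the gelatinase that Mmp14 and Timp2 activate together, read 86512, 88137 and 83958 by an _a_at set and 58881, 57276 and 49141 by another. These are 107 and 68 times the limit, and both sets exceeded it by a wide margin on every array (limma adjusted p = 5.38e-08 for each). Mmp9, a gelatinase of leukocytes and stimulated connective tissue cells, gave 4469, 3448 and 3502 by its first set. This was 4.68 times the limit (limma adjusted p = 9.49e-07). Its other set gave 2612, 3087 and 2397, at 3.32 times the limit.

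Of the 3 stromelysins, which cut proteoglycans and activate other Mmps, Mmp3 and Mmp10 were above the limit. Mmp3 read 117466, 163062 and 134072, or 169.6 times the limit (log2 ratio 7.41 ± 0.22 (SE), limma adjusted p = 8.17e-08), with replicate 2 highest. Mmp10 gave 1694, 2146 and 1019, which is 1.92 times the limit (limma adjusted p = 0.00486). Replicate 3 was the lowest for Mmp10, and its highest array read 2.11 times the lowest. Mmp11, a stromelysin that furin activates inside the cell, gave 385, 623 and 425, under the limit on all arrays.

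Of the 4 collagenases, which open the triple helix of fibrillar collagen, Mmp13 alone was above the limit on all arrays. It read 8820.3, 8899 and 9877, or 11.4 times the limit (limma adjusted p = 5.38e-08), and the arrays differed little. Mmp8, the neutrophil collagenase, gave 788, 821 and 835. These values sit on the limit itself, under it in replicate 1 and just over it in the other replicates (limma adjusted p = 0.945). Mmp1a, the mouse counterpart of human interstitial collagenase, read 477, 454 and 285 and its neighbour Mmp1b 318, 204 and 36.4, both under the limit on every array.

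Of the 4 membrane-type Mmps measured, Mmp14 was above the limit by all of its 3 probe sets. Mmp14 activates Mmp2 and cuts pericellular collagen. Its highest set gave 27208, 24869 and 22877, at 30.9 times the limit (log2 ratio 4.95 ± 0.11 (SE), limma adjusted p = 5.38e-08). The others lay just over the limit. On MOE430A 1 of these gave 1355, 940.3 and 1039.8, and the set on MOE430B gave 3724, 3469 and 4412. The latter did not pass limma (adjusted p = 0.0968). Mmp24 read 1026, 796 and 808 by its nearest set, above the limit in replicates 1 and 2 only, and its other sets were under it. Mmp16 was under the limit on every array by 4 sets, and Mmp17 by its only set, at 248, 264 and 248.

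The Mmps outside these groups were Mmp19, Mmp23, Mmp12, Mmp20 and the matrilysin Mmp7. Mmp19, a secreted Mmp, read 1367, 1120.2 and 921, or 1.39 times the limit (limma adjusted p = 0.0258). In limma this was not called with receptor families as reference (adjusted p = 0.0653), without an intensity trend (0.077), without replicate 1 (0.155) or without replicate 2 (0.0885). Its other set gave 1066, 1202 and 658 and fell under the limit in replicate 3. Mmp23, an atypical Mmp with a short membrane anchor and no hemopexin domain, gave 1882, 1559 and 1828 and, by an _a_at set, 1313, 1972 and 1435. Both Mmp23 sets were above the limit, at 2.17 and 1.92 times it. Mmp12, the macrophage elastase, varied between arrays, at 489.7, 925 and 1515. It was under the limit in replicate 1 and above it in the other replicates, with 3.09 times between the highest and lowest array. Mmp7 gave 469, 555 and 155 and the enamel protease Mmp20 296, 169.9 and 276, all under the limit. Over all Mmp probe sets under the limit on every MOE430A array, 9 in number, signals ranged from 36.4 to 739.6.

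**Figure D2:**
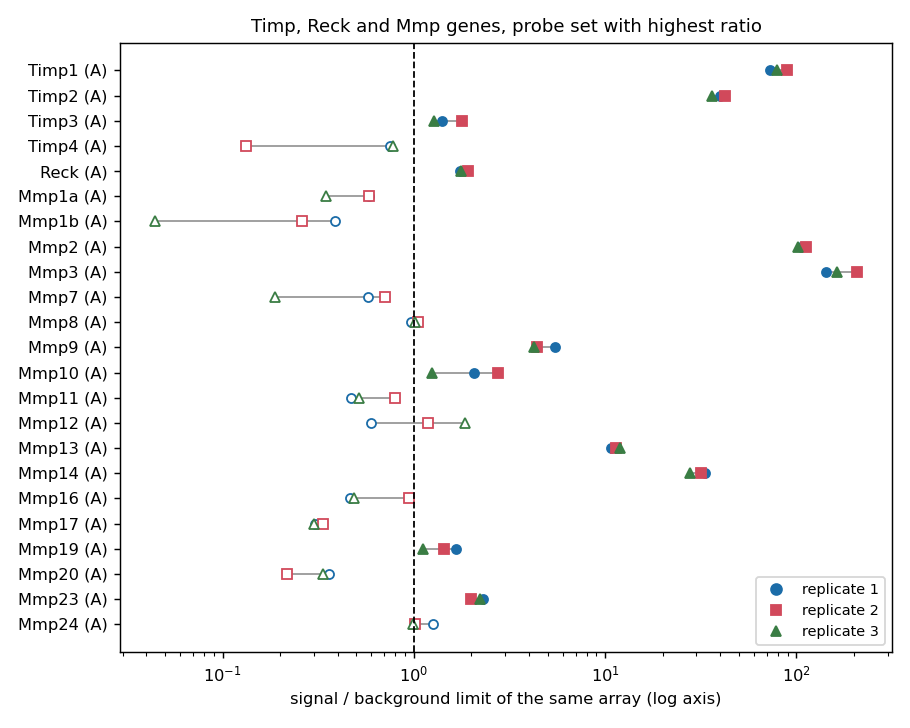
Signal of each Timp, Reck and Mmp gene as a fold of the limit of the same array (log axis; dashed line, the limit), with 1 point per replicate and a grey line for their range. The probe set with the highest ratio is shown, with its chip in brackets (A, MOE430A), filled where all 3 arrays were above the limit and open otherwise; Mmp3, Mmp2, Timp1, Timp2, Mmp14 and Mmp13 lie farthest to the right, at 11.4 to 169.6 times it.

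Of these Mmp genes, 9 of those measured lie side by side on chromosome 9 in RefSeq (GRCm38.p6), in a block that runs Mmp13, Mmp12, Mmp1b, Mmp3, Mmp1a, Mmp10, Mmp8, Mmp27, Mmp20 and Mmp7 with no other protein-coding gene between them. Mmp27 was not analysed here. Within the block Mmp13, Mmp3 and Mmp10 were above the limit, Mmp12 and Mmp8 were above it on 2 of 3 arrays, and Mmp1b, Mmp1a, Mmp20 and Mmp7 on none. Mmp3 thus lies between Mmp1b and Mmp1a, both under the limit on every array, while Mmp20 and Mmp7 at the end of the block are next to each other.

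Promoters of this block are known for a shared element bound by AP-1, the dimer of Fos and Jun proteins, so RefSeq's promoter sequences (GRCm38.p6, 250 bases before to 50 after each start) were searched for TGAGTCA and its reverse complement TGACTCA, which together cover both strands. Of the 10 genes of the block, 7 held the motif, beside 5.95% of 27025 genes with a promoter in that table. It was found in 0 of the 4 other measured Mmp genes with a promoter there and in 0 of the 4 Timp genes. The box TATAAA lay within the 50 bases before the start, on the gene's strand, in 6 of those 7, all but Mmp12, beside 3.15% of all genes. Over the 38 measured genes of all families with a promoter in the table, the AP-1 motif was in 4 of 16 above the limit (Mmp3, Mmp10, Mmp13 and Adam19) and in 5 of 22 not above it (Mmp12, Mmp1a, Mmp1b, Mmp7 and Adam1b). Over these 38 genes the motif was thus found at a like share on either side of the limit, but they include families without it. In the block, Mmp13, Mmp3 and Mmp10, above the limit, held it. Of the measured block genes not above the limit, Mmp12, Mmp1a, Mmp1b and Mmp7 held it, and Mmp8 and Mmp20 did not. A relation between motif and call was not tested. A match is a description of these letters and does not show binding. The 110 bases before the start of the 7 genes, on the gene's own strand, follow because these neighbours share the motif and differ in their calls against the limit. Capitals mark the motif, and the number of bases is the distance from its first base to the start.
Mmp13 (chr9:7272404-7272513, + strand, 35 bases): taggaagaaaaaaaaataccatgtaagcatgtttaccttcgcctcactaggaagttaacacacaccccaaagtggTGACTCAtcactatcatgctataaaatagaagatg
Mmp12 (chr9:7347264-7347373, + strand, 44 bases): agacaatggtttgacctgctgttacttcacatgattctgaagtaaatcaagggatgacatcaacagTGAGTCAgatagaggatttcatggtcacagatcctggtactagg
Mmp1b (chr9:7388027-7388136, - strand, 93 bases): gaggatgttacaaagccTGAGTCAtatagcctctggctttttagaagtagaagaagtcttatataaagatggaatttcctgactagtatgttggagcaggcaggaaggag
Mmp3 (chr9:7445712-7445821, + strand, 46 bases): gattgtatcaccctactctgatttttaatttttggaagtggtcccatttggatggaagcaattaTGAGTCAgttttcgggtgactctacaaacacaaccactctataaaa
Mmp1a (chr9:7464031-7464140, + strand, 73 bases): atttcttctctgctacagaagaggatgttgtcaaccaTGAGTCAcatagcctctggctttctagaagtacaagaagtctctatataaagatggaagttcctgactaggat
Mmp10 (chr9:7502232-7502341, + strand, 63 bases): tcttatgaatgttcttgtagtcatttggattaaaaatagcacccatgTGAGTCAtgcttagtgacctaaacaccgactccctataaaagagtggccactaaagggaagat
Mmp7 (chr9:7691980-7692089, + strand, 63 bases): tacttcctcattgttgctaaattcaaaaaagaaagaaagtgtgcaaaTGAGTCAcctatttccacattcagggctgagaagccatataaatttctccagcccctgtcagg
The upstream stretches of Mmp3, Mmp10 and Mmp13, whose genes were above the limit, and those of Mmp1a, Mmp1b and Mmp7, whose genes were under it on every array, each hold the same 7 letters or their reverse complement.

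Fos read 13540.0, 14956 and 10991 and Jun 4338, 4439 and 4453, both above the limit on all arrays. Of the listed transcription factors known to act on Mmp promoters, 9 of 11 measured were above the limit, beside 36.1% of all genes. They included Fosl1, a relative of Fos, at 2367 ± 298 (SD, n = 3), and Junb, a relative of Jun, at 2118 ± 164, and the factors Ets1 and Ets2, at 1766 ± 97.2 and 3171 ± 229. Fosb, at 803 ± 197, and Etv4, at 183 ± 56.7, were not above it on all arrays.

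Among the somatic-type ADAMs, Adam9, Adam10, Adam15, Adam17, Adam19 and Adam33 were above the limit. Adam10 is the main protease for Notch receptors and cadherins. Its highest set gave 5585, 5116 and 4829.7, or 6.4 times the limit (log2 ratio 2.68 ± 0.09 (SE), limma adjusted p = 1.58e-07). Its other 3 sets were under the limit on every array, with means of 166 ± 22.1 and 340.1 ± 129 on MOE430A and 437 ± 93.2 on MOE430B (SD, n = 3). Adam17, the convertase of TNF and of EGF family ligands, was above the limit by 2 of 3 sets. These read 3998, 4373 and 4155 in the first set and 3731, 4830.2 and 3016 in the next, at 5.17 and 4.69 times the limit, and the last gave 298, 437 and 688. Adam9, a widely expressed ADAM, read 11501, 11423 and 12089, at 14.4 times the limit (limma adjusted p = 5.38e-08), with the arrays within 1.06 times of each other.

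Adam15, an ADAM with an integrin-binding loop, was above the limit by an _x_at set alone, at 2731, 2473 and 2830.3. The probes of such a set may match other transcripts. Its other 3 sets gave 841 ± 205, 398 ± 103 and 100.4 ± 24.7 (SD, n = 3), none above the limit on all arrays. Adam19, also called meltrin beta, read 2742, 2371 and 2354 by its first set, 3.07 times the limit (limma adjusted p = 5.01e-06), and 302, 267 and 291 by its second, under it throughout. Adam33 was above the limit by an _a_at set at 999, 1354 and 1623, or 1.61 times it (limma adjusted p = 0.00646). Its set on MOE430B was under that chip's limit on every array, at 1032, 979.7 and 155.

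The other 6 somatic-type ADAMs were not above the limit. Adam12, or meltrin alpha, known from regenerating muscle and mesenchyme, read 849.8, 818 and 158 by its nearest set. It exceeded the limit slightly in replicates 1 and 2 and lay far under it in replicate 3, so the call turned on that array (limma adjusted p = 0.183). Adam8, an ADAM of leukocytes and osteoclasts, gave 1037, 734 and 1079.7 and was under the limit in replicate 2 alone. Adam11, Adam22 and Adam23, members without protease activity that are known from the nervous system, and Adam28, known from lymphocytes, were under the limit on every array by all their sets. Over the somatic-type sets under the limit throughout, signals ran from 35.7 to 688 for 12 sets on MOE430A and from 155 to 2273 for 6 sets on MOE430B.

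Of the 16 testis-type Adam genes, 15 were not above the limit on any array. They were Adam1a, Adam1b, Adam2, Adam3, Adam5, Adam6a, Adam6b, Adam7, Adam18, Adam21, Adam24, Adam25, Adam26a, Adam32 and Adam34, many of which act in sperm maturation and egg binding. Their signals ran from 9.41 to 724 for 13 sets on MOE430A and from 30.02 to 1127 for 4 sets on MOE430B. The subunit of fertilin encoded by Adam2 read 306, 225 and 436, and Adam3, a sperm protein needed for passage to the egg, 36.1, 42.2 and 35.8. The fertilin partner Adam1b gave 585, 570.3 and 528 by the set with its highest ratio to the limit. In limma 13 of 14 testis-type sets on MOE430A and 4 of 4 on MOE430B were lower than the limit, beside 47.8% and 73.6% of all probe sets of these chips. The limit itself rests in part on sperm genes (Prm, Tnp and Tssk), taken as silent here. Other silent testis genes would thus mostly fall under it by construction.

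The exception was Adam4, which read 2201, 1869 and 1378 by its only probe set. All arrays were above the limit, at 2.21 times it (log2 ratio 1.14 ± 0.15 (SE), limma adjusted p = 3.70e-04), and replicate 1 was the highest. Of 6 marker genes of testis germ cells 0 were above the limit on all arrays, beside 36.1% of all genes, with the same reservation about the sperm genes behind the limit. Acrv1, a protein of the acrosome, read 411, 328 and 609 and the sperm tail gene Akap4 212, 61.5 and 224, both under it throughout, while Spata3 exceeded its MOE430B limit in replicate 2 alone.

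**Figure D3:**
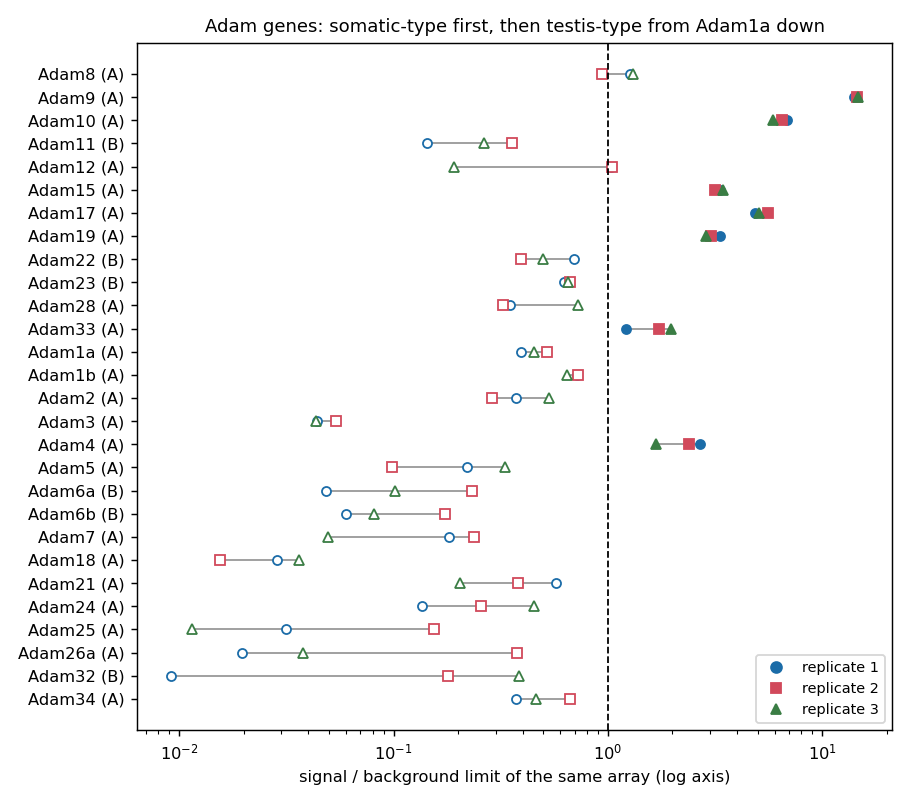
Signal of each Adam gene as a fold of the limit of the same array (log axis; dashed line, the limit), for the probe set with the highest ratio (A, MOE430A; B, MOE430B). Filled points mark genes above the limit on all 3 arrays: Adam9, Adam10, Adam15, Adam17, Adam19 and Adam33 among the somatic-type genes, and Adam4 alone among the testis-type ones.

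Among the ADAMTS proteases, Adamts1, Adamts4, Adamts7, Adamts9, Adamts12 and Adamts16 were above the limit. Of 7 aggrecanases and versicanases, which cut large proteoglycans, 3 were. Adamts4 gave 7570.4, 9112 and 8039.7, or 10.2 times the limit (limma adjusted p = 8.48e-08), while its other set gave 366, 226 and 654, under it. Adamts1, which cuts versican, read 4882, 3288 and 4554, at 5.18 times the limit (limma adjusted p = 1.30e-06). Adamts9 was above the limit by 2 of 3 sets on MOE430B, at 6100.0, 5655 and 5024 in the first and 4104, 4782 and 4083 in the second. Those values are 1.92 and 1.48 times that chip's limit.

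Adamts5, the other well-known aggrecanase, was near the limit by 3 of 4 sets and above it on all arrays by none. Its nearest set read 808, 1220.1 and 926, under the limit in replicate 1 alone and by little (limma adjusted p = 0.195). Without replicate 1 Adamts5 would be counted as above it. Adamts8, Adamts15 and Adamts20 were under the limit on every array. The procollagen protease Adamts3 was as well, at 1543, 984 and 1281 by its nearer set on MOE430B.

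Adamts7 and Adamts12 are a pair of related enzymes that cut cartilage oligomeric matrix protein. Adamts7 read 1512, 1229 and 1065, at 1.55 times the limit (limma adjusted p = 0.00551), and replicate 3 was lowest. Adamts12 gave 7405, 7896 and 6283 on MOE430B, at 2.46 times the limit there (limma adjusted p = 2.19e-05), and 709.8, 1036 and 256 by its second set, under it. Adamts16, on MOE430B as well, read 6789, 7333 and 5091, at 2.18 times the limit (limma adjusted p = 1.28e-04), and 2230.3, 1816 and 2189.6 by its other set. Adamts10, which acts on fibrillin microfibrils, gave 984, 1013 and 691 and fell under the limit in replicate 3. Adamts6, Adamts18 and Adamts19 were under it on every array.

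**Figure D4:**
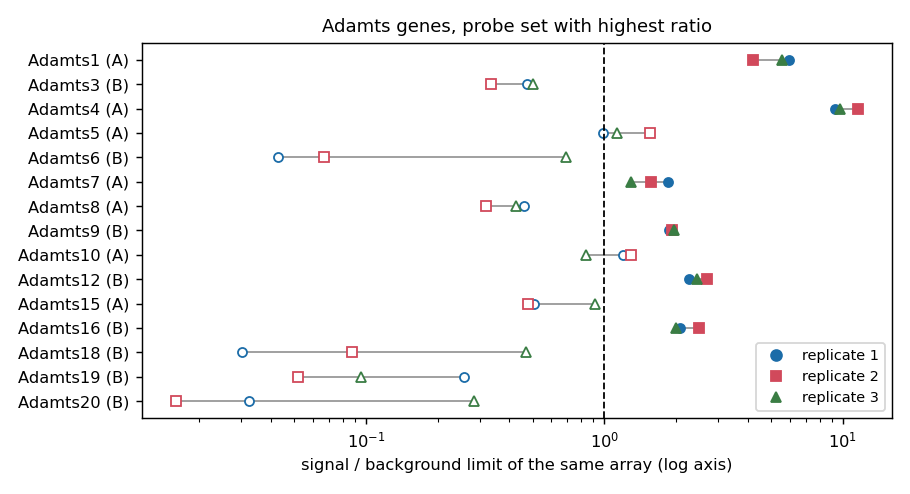
Signal of each Adamts gene as a fold of the limit of the same array (log axis; dashed line, the limit), for the probe set with the highest ratio (A, MOE430A; B, MOE430B). Filled points mark genes above the limit on all 3 arrays; Adamts4 and Adamts1 lie at 10.2 and 5.18 times it, and the points of Adamts5 and Adamts10 fall on either side of it.

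Different probe sets of 1 gene often disagreed. Of 30 genes with more than 1 probe set, 16 were above the limit and 12 of these 16 had at least 1 set that was not. The share of such mixed calls over all measured genes was not counted, so this is not shown to be particular to these families. Of the 6 sets of Timp2 3 were above it on all arrays, and of the 4 sets of Adam10 1 was. By contrast both sets of Mmp2, of Mmp9 and of Mmp23 and all 3 of Mmp14 were above it. The positions of the probe sets along the transcripts were not used here, and the part of the fall in signal toward the 5' end in these differences was not tested.

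**Figure D5:**
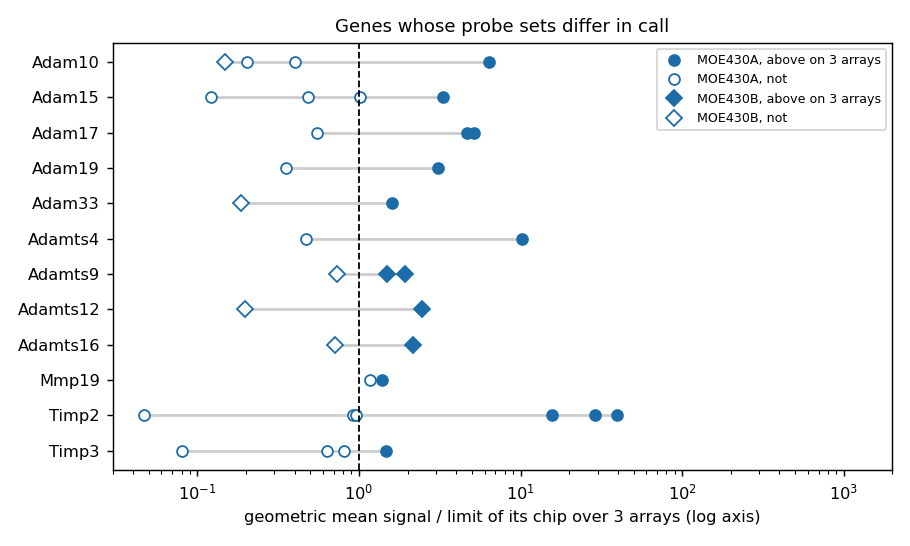
The 12 genes above the limit that also have a probe set not above it: each point is a probe set, at its geometric mean over 3 arrays as a fold of its chip's limit (log axis). Filled points were above the limit on all 3 arrays and open points were not; Timp2 has 3 of each.

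Replicates of the sets above the limit lay close together. The median SD of log2 signal was 0.15 over the 29 member sets above the limit on MOE430A, beside 0.19 over all sets above it, and 0.17 over 5 on MOE430B, beside 0.23. Replicate 3 was the lowest array for 14 of the 29 and the highest for 4. The order of the arrays was not counted over all sets above the limit, so it is not shown to be particular to these families. A test between replicates was possible for genes above the mean limit on both chips, with the chips as repeat readings: these were Mmp14 and Adamts5. Neither was called (limma moderated F-test over 614 genes, adjusted p = 0.964 and 0.923), where 1.47% of all genes tested were called. Their largest differences between replicates were 0.22 and 0.39 on the log2 scale, with an SE of 0.26 and 0.34. The MOE430B array of replicate 1 came from another chip lot than those of replicates 2 and 3. For 1 of the 5 member sets above the limit there it was the highest array, and for 0 the lowest, while replicate 3 was the lowest for 4 of the 5. Here too the order over all sets above the limit was not counted.

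Genes that act with these proteases were followed in lists, whose choice was made with earlier results of these data known. The 36.1% set beside any list is not matched for the number of probe sets per gene, on which the share depends. This holds for the transcription factors and cell markers too. The first list holds convertases and other enzymes that process proteases and procollagens, with the enhancers Pcolce and Pcolce2. Of its genes, 6 of 9 were above the limit, beside 36.1% of all genes. Furin, which activates Mmp14 and the ADAMs in the secretory path, read 5324, 5500.0 and 5606, and Bmp1, the procollagen C-proteinase, 2378, 2272 and 4159.5. Pcolce, the enhancer of Bmp1, read 30804, 42615 and 31262, while Pcsk6, Tll1 and Tll2 were not above it. Of partners and regulators at the cell surface, 12 of 15 were above it, beside the same share. These included basigin (Bsg), an inducer of Mmps, at 4317 ± 812, Lrp1, which clears proteases and Timps, at 7000.2 ± 1412, and the Adam10 partner Tspan5, at 4257 ± 909 (SD, n = 3). For the partners of Adam17, Rhbdf1 read 5613, 5150.1 and 5583 and was above the limit, whereas Rhbdf2, on MOE430B, and Frmd8 were not above it on all arrays.

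Of membrane proteins known to be shed by Adam10 or Adam17, 14 of 19 measured were above the limit, beside 36.1% of all genes. The ligand Ereg gave 17171, 15718 and 22872, Hbegf 1349, 1804 and 2274 and Tgfa 1612, 1074 and 1214, each above the limit on every array. The TNF receptor Tnfrsf1a read 10650.2 ± 653 (SD, n = 3), while Tnf itself read 288 ± 288 and was under it. Notch1, Il6ra, Jag1 and Cx3cl1 were not above it on all arrays. Of matrix substrates of Adamts enzymes 6 of 11 measured were above it, beside the same 36.1%: versican (Vcan), at 9996, 7495 and 9546, biglycan, decorin and the collagen genes Col1a1, Col1a2 and Col3a1. Aggrecan (Acan) was not, at 949, 778 and 930.1, over the limit on 2 of 3 arrays, nor were Bcan, Ncan, Comp and Vwf. Of 6 Adamts-like genes, whose proteins resemble ADAMTS but have no protease domain, 0 were above it, beside 36.1% of all genes. Adamtsl3, on MOE430B, was above it on 2 of 3 arrays.

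Marker genes of the cells that a muscle digest can hold were read in the same way, beside the 36.1% of all genes above the limit. Ly6a, which encodes Sca1, was not analysed here. Of fibroblast and mesenchymal markers 6 of 6 were above the limit on all arrays, among them Pdgfra at 12733 ± 791 (SD, n = 3). Muscle stem cell and myoblast markers were for 0 of 5, although Myod1, at 1074, 605 and 1062, and Myog, at 729.7, 1332 and 1468, exceeded it on 2 of 3 arrays. Macrophage and leukocyte markers were above it for 2 of 6, Adgre1 and Csf1r at 1431 ± 145 and 2925 ± 555, and neutrophil markers for 1 of 6, S100a8 at 6291 ± 904 by a set that may match other transcripts. Endothelial markers were above it for 1 of 4 (Kdr), pericyte and smooth muscle markers for 1 of 4 (Rgs5) and neural markers for 0 of 3. With 3 to 6 genes in each list, shares such as 2 of 6 or 1 of 4 are near that of all genes. Ptprc, the common leukocyte antigen, gave 628 ± 219.7 and the neutrophil gene Mpo 766 ± 82.7, neither above the limit on all arrays. Leukocytes are known sources of Mmp8, Mmp9, Mmp12 and Adam8, and the part of such cells in those signals was not tested. In bulk RNA fewer cells of a type and less RNA per cell cannot be told apart.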

How the data were processed

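Both deposited tables hold MAS5 signal intensity on a linear scale, with MAS5 named by the submitters' processing notes without a version. Without the lowest and highest 2% of values, the mean signal of an array lay between 1500.2 and 1500.8, so the authors' values carry the same scaling on each array. Over 100 probe sets on both chips, none of them a member, the median log2 signal on MOE430B was higher by 1.86. Only 3 arrays per chip limit the precision. Names come from GEO's platform annotation, updated by Entrez number through RefSeq (GRCm38.p6), which held 34837 of 35041 single-gene probe sets and all 117 member sets; promoters were matched for 38 of 66 genes.

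Limits came from 152 reference probe sets on MOE430A and 43 on MOE430B for genes of the placenta (prolactin family), lens (gamma crystallins), hair (keratin-associated), gut (defensins), sperm (Prm, Tnp, Tssk) and the senses (odorant, vomeronasal, taste receptors). Log2 signals were fitted with limma 3.58.1 in R 4.3.3, with an intensity trend, without control probe sets and with no pseudocount. The code was also run on simulated data with the same spread for every probe set. For the distance from the limit that run had no trend, so it does not check the trend fits reported here. The test between replicates had the chip as covariate. Calls used an adjusted p under 0.05. Python 3.11.15, numpy 2.4.6, pandas 2.3.3 and matplotlib 3.10.9 did the rest. The members, lists, tests and alternatives were chosen with earlier results of these data known. Every Timp, Reck and every member gene above the limit is given per array, and the printed set is that with the highest ratio to its limit. Alternatives were another percentile, the array median or receptor families as limit, no shared-sequence sets, 1 set per gene (by mean signal or, added after seeing the data, by ratio to the limit), MOE430A alone, quantile normalization, other call rules, fits without a trend and leaving out each replicate. Probe sets annotated to several genes were left out.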

Additional observations from a re-analysis of the deposited data

How the results depend on the processing

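Of the 25 genes above the limit, 16 were measured and kept that call under all 13 alternatives. The like share over all genes above the limit was not counted. With the 99th percentile as limit Adam33, Adamts7, Mmp10, Mmp19 and Timp3 lost it, leaving 20 genes beside 27% of all genes, and without sets of shared sequence Adam15 and Adam33 did. MOE430A alone does not carry Adamts9, Adamts12 and Adamts16, so 3 Adamts genes were above it. These uncarried genes are not among the 16, although they lost the call under no alternative that measured them. Counted on 2 of 3 arrays, 32 genes were above it, beside 42.2% of all genes. The added ones were Adam8, Adam12, Adamts5, Adamts10, Mmp8, Mmp12 and Mmp24. Leaving out a replicate gave 26 to 28 genes, beside 37.5% to 38.6% of all genes. The array median as limit gave 33, beside 53.9% of all genes. The array median is a lower limit. It, a call on 2 of 3 arrays and leaving out a replicate can only add genes. That no call was lost under these alternatives was thus fixed in advance. On MOE430B limma called 2 member sets higher with the 99th percentile and 10 with the array median as limit. The share over all probe sets was not counted for these 2 settings.

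Log2 ratios to the limit turned sign under some alternatives. With the 99th percentile they were -0.29 for Adam8, -0.37 for Adamts10, -0.24 for Adamts5, -0.37 for Mmp12, -0.027 for Mmp19, -0.39 for Mmp24 and -0.49 for Mmp8. With receptor families as reference Mmp24 was at -0.0126 and Mmp8 at -0.11, and with the array median as limit Adam22 was at 0.70, Adam23 at 1.04 and Adamts3 at 0.44. These 3 genes were under the 95th percentile on every array, at -0.96, -0.63 and -1.22. Over the fits that left out a replicate, the ratio of Adam12 ranged from -1.16 to 0.058 and that of Mmp12 from -0.25 to 0.56. That of Mmp24 ranged from -0.00018 to 0.17 and that of Mmp8 from -0.015 to 0.0457. With all replicates the ratios of Adam12, Mmp12, Mmp24 and Mmp8 were -0.75, 0.13, 0.11 and 0.01.

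With 1 probe set per gene, that of the highest mean signal, the median log2 ratio on MOE430A was 2.93 for Timp, 1.62 for somatic-type Adam, -2.18 for testis-type Adam and 0.64 for Adamts genes, and on MOE430B -2.47 for Mmp, -0.96 for somatic-type Adam and -0.83 for Adamts. This choice sets signals of both chips against each other although they are scaled separately, so these medians have no clear reading. With the set of the highest ratio to its own limit, an alternative chosen after seeing the data, the median on MOE430A was 0.12 for 18 Mmp, 2.93 for 4 Timp, 1.62 for 9 somatic-type Adam, -2.00 for 13 testis-type Adam and 0.26 for 7 Adamts genes, and on MOE430B -0.96 for 3 somatic-type Adam and -2.11 for 8 Adamts genes. Both choices raise the value of a gene with several sets by construction. On MOE430B, without sets of shared sequence it was -1.89 for Mmp. When a replicate was left out the median ranged on MOE430A from 0.15 to 0.50 for Mmp and from -1.10 to -0.98 for somatic-type Adam. On MOE430B it ranged from -2.17 to -1.92 for Mmp, from -1.87 to -1.56 for somatic-type Adam and from -2.54 to -1.29 for Adamts, and the median SD from 0.08 to 0.23. In limma 5 genes lost an adjusted p under 0.05 without a trend: Mmp19, which was higher than the limit, and Adam22, Adamts15, Mmp16 and Mmp7, which were lower. Between 5 and 6 genes lost it when a replicate was left out, among them Mmp19 and Timp3 of those above the limit. In the test between replicates 0 members were called under each setting run. No paired analysis was possible because the main calls come from no comparison of groups, and no member probe set is on both chips. Signals under the limit have no order.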

Other observations

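A few probe sets annotated to several genes hold a member and entered no count. The set for Adam6a and Adam6b together read 3644, 2043.7 and 2701 on MOE430B, above the limit on 2 of 3 arrays, while the single-gene sets of Adam6a and Adam6b were under it on every array. A set for Adam1a and the kinase gene Mapkapk5 read 5804, 628 and 3490 there, and differed by 9.24 times between its highest and lowest array. The other 3 sets for this pair were under the limit on every array, with means of 149 ± 39 on MOE430A, and 482 ± 149 and 2205 ± 1387 on MOE430B (SD, n = 3).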
